A study of Mus musculus with 7 samples.

Results

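Nol9, Plekhg5, Espn, Acot7, Gpr153, Icmt, Rnf207, Chd5 and Kcnab2 are 9 protein coding genes that lie close together, with a few others between them, in the middle of an engineered deletion of mouse chromosome 4. They were taken by position and symbol from the 15531 genes with an identifier in the deposited list of normalized counts. All 9 are in that list, and 8 of the 9 occur with values in at least 1 of the 3 deposited comparison tables. RNA came from 7 primary mouse embryonic fibroblast (MEF) lines taken at embryonic day 13.5 and used at passage 4, 10 hours after confluency. In the 4 Df/+Bl6 lines the chromosome 4 from 129S5SvEvBrd carried the deletion (Df), while the homologue from C57BL/6J was whole. The 3 control lines, +/+, were hybrids of the same strains with both copies of chromosome 4 intact. The Df/+Bl6 embryos came from chimeras made with Df/Dp embryonic stem cells and mated with C57BL/6J. The labels repeat this cross for every line, while the study's methods name F1 crosses of the strains as the controls. Each line is one culture from the headless body of an embryo, and no sex, litter or batch was given for the lines.

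The tables hold the authors' mean normalized count of each genotype, for reads summed over both alleles and for reads of each allele separately, and list only the genes that passed the authors' FDR threshold of 0.05. No value per line was used, so no error, interval or test between lines can be given for any mean below, and the depth of each line is unknown. A ratio is always Df/+Bl6 over +/+, and a log2 ratio of -1 is what the loss of 1 of 2 equally expressed copies would give. In the table of both alleles summed, 550 of the 15531 tested genes (3.54%) were listed as lower in Df/+Bl6. In bulk RNA, fewer cells of a type and less RNA per cell cannot be told apart.

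The 9 genes serve unrelated functions. Nol9 is a polynucleotide kinase of the nucleolus that acts in the processing of the precursor of ribosomal RNA. Plekhg5 is a guanine nucleotide exchange factor for small GTPases, best known in motor neurons, and Espn (espin) bundles actin filaments in the stereocilia of hair cells. Acot7 hydrolyzes long chain acyl-CoA to free fatty acid and coenzyme A and is abundant in brain. Gpr153 is an orphan receptor of the G protein coupled family. Icmt is the methyltransferase of the endoplasmic reticulum that caps the prenylated cysteine of CaaX proteins such as Ras and the lamins. Rnf207 is a RING finger protein of heart muscle. Chd5 is a chromatin remodeler of neurons and testis that can join the NuRD complex, and it was described as a tumor suppressor of the human region 1p36. Kcnab2 is a beta subunit of voltage gated potassium channels.

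On GRCm38.p6, in the RefSeq gene table, the 9 genes run from 152039261 (start of Nol9) to 152477549 (end of Kcnab2) of chromosome 4, a span of 438 kb. This is 9.67% of the 4.53 Mb between Rere and Ski, which lie at the ends of the deleted stretch. Nol9 lies at 152039261 to 152061494, Plekhg5 at 152072433 to 152115404 and Espn at 152120331 to 152152414. Acot7 (152178100 to 152271855) is the longest of the genes at 93.8 kb, followed by Gpr153 (152274106 to 152285342), Icmt (152297214 to 152307126) and Rnf207 (152307018 to 152319076). Chd5 lies at 152338646 to 152390194 and ends 0.549 kb before Kcnab2, at 152390744 to 152477549. Espn, Rnf207 and Kcnab2 are on the minus strand and the other 6 on the plus strand. The gene models of Icmt and Rnf207 overlap on opposite strands by 109 bases, those of Kcnab2 and Nphp4 by 844, and those of Gpr153 and Hes3 by 93. The libraries were stranded, but whether the strand was used in counting was not given in the sources used here, so reads in these overlaps are uncertain. Of the 5 other protein coding genes that touch the span, Tnfrsf25, Hes2 and Hes3 are not among the tested genes, and Rpl22 and Nphp4 are.

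**Figure D1:**
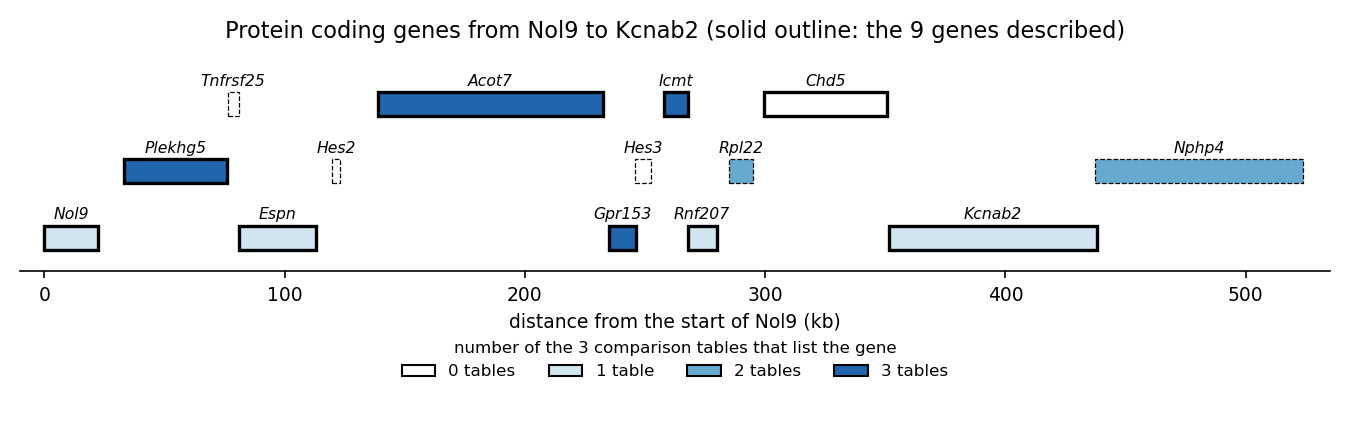
Map of the protein coding genes from Nol9 to Kcnab2, drawn to scale as distance from the start of Nol9 in kb on GRCm38.p6, in 3 rows for legibility. Solid outlines mark the 9 genes described and dashed outlines the 5 others, and the fill gives how many of the 3 comparison tables list the gene: Plekhg5, Acot7, Gpr153 and Icmt are in all 3, and Chd5 is in none.

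Sequences before the gene starts are shown as a description, and their relation to the lower means in Df/+Bl6 was not tested. For 8 of the 9 genes (all but Rnf207) a RefSeq start was matched by symbol on GRCm38.p6, and the 250 bases before the first start given were read. All 8 windows held the GC box GGGCGG on at least 1 strand, with overlapping matches counted, against 32.9% of 27025 such windows of all genes. None held TATAAA on either strand, which 13.0% of all windows did. The number of CG dinucleotides ran from 6 (Acot7) to 40 (Icmt), and the median of all windows was 6. The share of G and C ran from 56.4% (Acot7) to 83.6% (Plekhg5), above the median of 52% of all windows. The GC box was not counted in windows of similar share. The windows of the 3 genes whose summed level was below a log2 ratio of -1 are printed with that of Acot7, 1 of the 3 above it. Capitals mark GGGCGG or its reverse complement CCGCCC, and each sequence reads 5′ to 3′ on the strand of the gene. That of Espn is on chr4:152152390-152152639 (minus strand), that of Plekhg5 on chr4:152086613-152086862, that of Gpr153 on chr4:152273862-152274111 and that of Acot7 on chr4:152185358-152185607 (plus strand). The Plekhg5 and Acot7 windows, and that of Icmt, which is not printed, lie inside the longest extent of their genes, before an inner start. The windows of Nol9, Espn, Gpr153 and Chd5 reach into that extent by 60, 25, 6 and 5 bases. The last marked match of Espn lies in this part.
Espn: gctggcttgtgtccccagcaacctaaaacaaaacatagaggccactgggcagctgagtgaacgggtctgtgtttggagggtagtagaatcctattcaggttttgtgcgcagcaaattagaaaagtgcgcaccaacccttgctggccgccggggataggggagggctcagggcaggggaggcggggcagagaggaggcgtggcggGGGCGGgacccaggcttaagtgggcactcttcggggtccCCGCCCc
Plekhg5: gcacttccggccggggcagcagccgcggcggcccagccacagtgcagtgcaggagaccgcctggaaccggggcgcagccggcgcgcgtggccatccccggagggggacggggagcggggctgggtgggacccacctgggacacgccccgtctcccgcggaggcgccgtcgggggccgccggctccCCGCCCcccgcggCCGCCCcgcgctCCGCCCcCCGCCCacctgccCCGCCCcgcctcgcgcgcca
Gpr153: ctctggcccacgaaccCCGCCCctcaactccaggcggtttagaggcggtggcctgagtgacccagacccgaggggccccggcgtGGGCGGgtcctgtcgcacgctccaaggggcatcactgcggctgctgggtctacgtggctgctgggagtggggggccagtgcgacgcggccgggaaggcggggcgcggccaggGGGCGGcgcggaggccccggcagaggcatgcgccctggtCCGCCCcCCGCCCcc
Acot7: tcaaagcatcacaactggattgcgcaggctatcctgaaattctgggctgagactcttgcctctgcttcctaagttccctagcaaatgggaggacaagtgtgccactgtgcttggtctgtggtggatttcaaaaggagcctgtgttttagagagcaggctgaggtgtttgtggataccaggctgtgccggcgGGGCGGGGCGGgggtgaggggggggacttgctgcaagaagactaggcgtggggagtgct
A match is a description of the letters and says nothing of which factor bound there. The Plekhg5 window had 37 CG dinucleotides and the Espn window 11, while those of Gpr153 had 26 and of Acot7 6.

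With both alleles summed, 6 of the 9 genes were listed, and all 6 were lower in Df/+Bl6: Nol9, Plekhg5, Espn, Acot7, Gpr153 and Icmt. This share, 66.7%, stands beside the 3.54% of all tested genes listed as lower and the 63.6% (21 of 33) of the other tested genes between Rere and Ski, all 21 of which were lower as well. The median log2 ratio of the 6 was -1.16, near the -1.02 of the other 21 interval genes and below the -0.81 of all 550 genes listed as lower. Lower by at least 2-fold were 3 of the 6 and 12 of the 21 other interval genes listed. Of all 1346 genes listed, those higher in Df/+Bl6 included, 12.9% were. No spread between lines is known, so none of the differences within the group was tested.

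Espn showed the largest change. From 303 normalized counts in +/+ MEFs the mean dropped to 52.4 with the deletion, a log2 ratio of -2.53, so that 17.3% of the control level was left. Only 1 of the 27 listed interval genes, Arhgef16, had a lower ratio, and 10 of all 1346 listed genes did. Espn was also the least expressed of the 6, since 2.60% of the listed genes had a lower mean over all lines. Genes of such low counts were listed only when the change was large. Of the 33 other genes lower in Df/+Bl6 with a mean within 1.5-fold of that of Espn, the smallest fall was -1.01 on the log2 scale, the median was -1.44, and 1 was below Espn.

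Plekhg5 had a mean of 2507 in +/+ and of 898 in Df/+Bl6 (log2 ratio -1.48). This is 35.8% of the control mean. Gpr153 stood at 9340 and 3609 (-1.37), with 38.6% left. Among the genes lower in Df/+Bl6 with a mean within 1.5-fold of their own, 3 of 77 lay below Plekhg5 and 6 of 92 below Gpr153. Both genes, like Espn, were below the -1 of a lost copy, by 0.48 for Plekhg5 and 0.37 for Gpr153.

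The 3 other genes lay above that value. The listed genes outside the interval had a median log2 ratio of 0.62, but they are a selected set, so this median is not the centre of all genes. Relative to it Icmt was at -1.56, Acot7 at -1.42 and Nol9 at -1.33. Icmt had a mean of 10899 in +/+ and of 5668 in Df/+Bl6 (log2 ratio -0.94), with 52.0% of the control mean left. Acot7, the most abundant of the group, was at 14999 and 8581 (-0.81). Nol9 was at 3130 and 1912 (-0.71) and retained the largest part of the control mean, 61.1%. Of the 27 listed interval genes, 1 had a smaller fall than Nol9, namely Phf13 (-0.66).

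Per kb of the longest annotated transcript, the control means of the 6 genes covered a wide range. Acot7 led with 9966 normalized counts per kb, followed by Gpr153 (2434), Icmt (2202), Nol9 (841), Plekhg5 (610) and Espn (84.2). In Df/+Bl6 the order was the same except that Icmt (1145) stood above Gpr153 (940). Without values per line it is unknown which neighbors in this order differ beyond their spread.

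**Figure D2:**
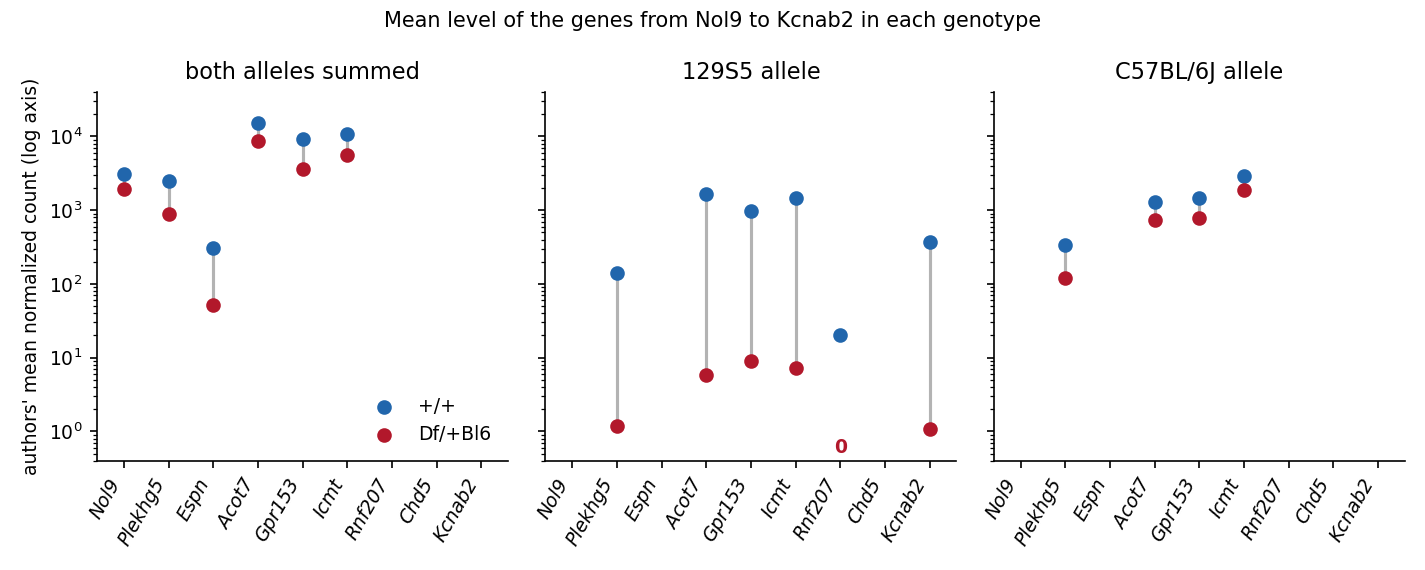
Authors' mean normalized count (log axis) of each of the 9 genes in chromosome order, in +/+ (blue, 3 lines) and Df/+Bl6 (red, 4 lines) MEFs, for reads of both alleles summed, the 129S5 allele and the C57BL/6J allele. A gene without points is not listed in that table, the red 0 marks Rnf207 (listed at 0), no error bars can be drawn, and levels are not comparable between panels. Every red point is below its blue point, with the widest gaps in the 129S5 panel.

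The copy from 129S5 is the one that the deletion removes. The direction of the listed genes therefore bears on which mean belongs to which genotype. Genes whose reads of this allele did not pass the threshold are left out, so the low residues below are those of a selected set. Nol9, Espn and Chd5 are not listed for this allele and have no value here. The 129S5 table listed 6 of the 9 genes, all lower in Df/+Bl6, where 47.9% of all genes listed in that table were lower. It also listed 48.5% (16) of the 33 other interval genes and 1.51% of the 15489 genes outside, as shares of the genes tested with both alleles summed. Kcnab2 and Rnf207 appear here although they are not listed for the summed reads. For Kcnab2 the mean count of this allele was 372 in +/+ lines and 1.08 in lines with the deletion, so 0.290% of the control mean was left. Rnf207 was listed at 0 in Df/+Bl6 and at 20.1 in +/+, the smallest control mean of the 6.

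Acot7 kept 0.353% of its control mean at this allele, with 5.8 in Df/+Bl6 against 1645. Icmt was at 7.17 against 1474 (0.486%), Plekhg5 at 1.19 against 140 (0.855%) and Gpr153 at 8.90 against 976 (0.912%). All 6 genes were thus under 1% of the control mean, and no mean in Df/+Bl6 reached 10. The log2 ratios ran from -6.78 (Gpr153) to -8.43 (Kcnab2), leaving out Rnf207. The other 16 interval genes listed for this allele kept between 0.0888% and 3.96%, and the highest of these was Zbtb48, which lies just before Nol9 beyond Tas1r1. So low a residue was not limited to the interval, because 5 of the 235 genes listed outside it were also at or below 3.96%, 2 of them at 0.

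The C57BL/6J copy was present in both genotypes. Its table listed 4 of the 9 genes, Plekhg5, Acot7, Gpr153 and Icmt, and each was lower in Df/+Bl6 MEFs. Lower genes made up 44.5% of all 326 listed there. Plekhg5 had a mean of 337 in +/+ and of 120 in Df/+Bl6 (log2 ratio -1.50). Gpr153 was at 1460 and 771 (-0.92), Acot7 at 1295 and 742 (-0.80), and Icmt at 2938 and 1891 (-0.64). In this table the means of the 4 genes in Df/+Bl6 were thus between 35.5% (Plekhg5) and 64.4% (Icmt) of the control means. Listed were also 24.2% (8) of the 33 other interval genes and 2.02% of the 15489 genes outside, as shares of the genes tested with both alleles summed, since the number tested for an allele is not known. Nol9, Espn, Rnf207, Chd5 and Kcnab2 are not listed for this allele, but smaller changes and untested genes are left out of the table, so their C57BL/6J copy may also have differed.

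The allelic ratios can be set beside the summed ratio of the same gene, with the limit that all 3 comparisons come from the same lines. For Acot7 the C57BL/6J allele and the summed reads gave nearly the same log2 ratio (-0.80 and -0.81), and so they did for Plekhg5 (-1.50 and -1.48). For Gpr153 the C57BL/6J ratio was higher than the summed one by 0.45, and for Icmt by 0.31. The 8 other interval genes in both allelic tables spanned -0.13 to 0.37 in this difference, with a median of 0.06, against 0.15 for the 4 genes here. The allelic means do not add up to the summed ones. When the means of both alleles were added across their tables, which need not share a scale, Acot7 was at 25.4% of the control in Df/+Bl6, against 57.2% in the table of both alleles summed. Plekhg5 came to 25.3% against 35.8%, Gpr153 to 32.0% against 38.6% and Icmt to 43.0% against 52.0%. The added value was also the lower one for all 8 other interval genes in both allelic tables, running from 18.4% to 43.6% against 30.2% to 63.4%. The fall of the C57BL/6J allele is therefore uncertain in size, and the cause of this mismatch was not tested.

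The log2 ratio of the 129S5 allele minus that of the C57BL/6J allele was -5.38 for Plekhg5, -5.86 for Gpr153, -7.05 for Icmt and -7.34 for Acot7. Apart from that sum, levels were not compared between tables, because only reads over a difference between the strains count for an allele and each table holds its own normalized means.

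**Figure D3:**
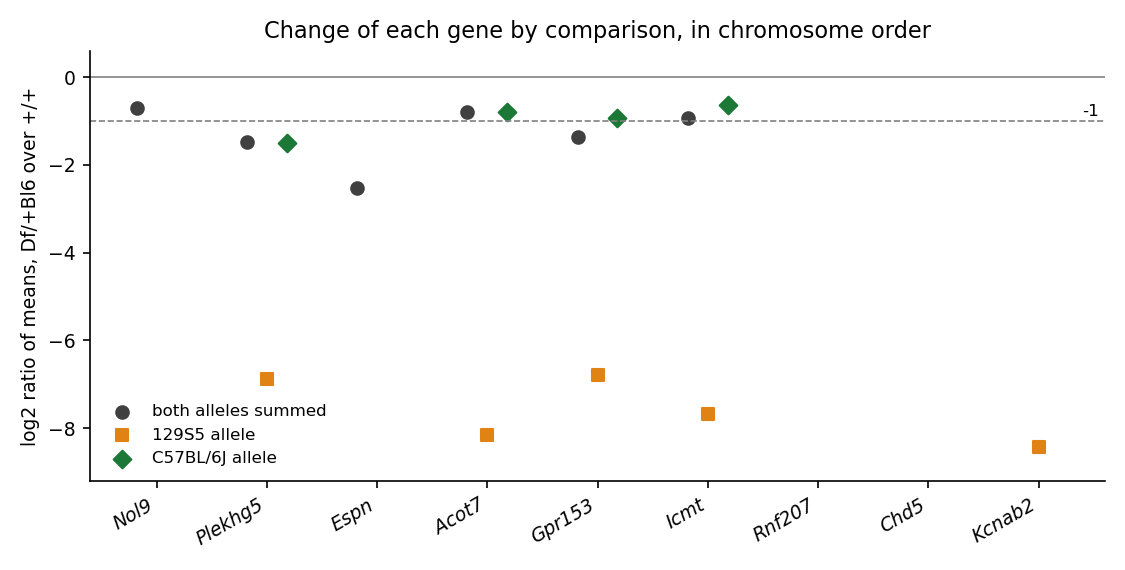
Log2 ratio of the authors' means, Df/+Bl6 over +/+, for each gene in chromosome order, with circles for both alleles summed, squares for the 129S5 allele and diamonds for the C57BL/6J allele. The dashed line is the -1 of a lost copy. The 129S5 points lie between -6.78 and -8.43, the others between -0.64 and -2.53, and Rnf207 has no point because its Df/+Bl6 mean is listed at 0.

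Chd5 is in none of the 3 tables. It is among the 15531 genes tested with both alleles summed, so its summed reads did not pass the authors' threshold, and no level of it was used here. Whether it was tested for the single alleles is not stated. Rnf207 and Kcnab2 are likewise without a summed value, although their 129S5 copy was at or near 0. Among the immediate neighbors, Rpl22, which encodes a ribosomal protein and lies between Rnf207 and Chd5, had a summed log2 ratio of -1.02, and Nphp4 after Kcnab2 one of -1.25. Tas1r1 before Nol9 was tested and not listed in any table.

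**Figure D4:**
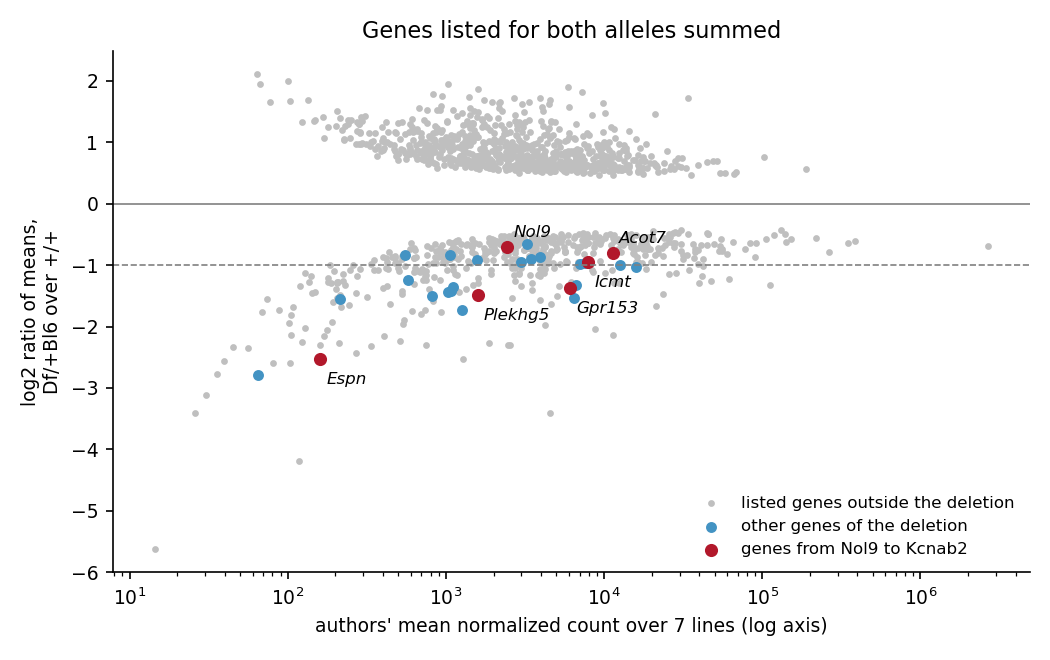
Log2 ratio of the authors' means (y axis) against the mean normalized count over all 7 lines (x axis, log scale) for the 1346 genes listed with both alleles summed. Gray points lie outside the interval between Rere and Ski, blue points are other interval genes, red points are the 6 listed genes of the group, and the dashed line is at -1. No gene is near 0, since only genes past the authors' threshold are listed, and the gap around 0 widens toward low means, where Espn lies.

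The partners and relatives of the 9 genes were looked up from 10 lists, which hold 124 different genes. Of these 109 were tested with both alleles summed, and 12 were listed, 8 higher and 4 lower in Df/+Bl6. Of all 15531 tested genes 8.67% were listed and 5.13% were higher, and the count stands against that background. In 4 of the lists no gene was listed. These are the PLEKHG family with its GTPases (0 of 10 tested), the actin bundlers and espin partners (0 of 9), the orphan receptor Gpr162 (0 of 1) and the Kv1 channels with their other beta subunits (0 of 8). The lists were counted without a test.

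In the list of ribosomal RNA processing genes around Nol9, 4 of 17 tested were listed, all higher in Df/+Bl6, as were 5.13% of all tested genes. These were Nop58 (7190 in +/+ and 15161 in Df/+Bl6, log2 ratio 1.08) and Nop56 (0.70), both of the box C/D ribonucleoprotein, the nucleolar protein Ncl (0.77) and the helicase Ddx21 (0.57). The Las1l, Pelp1, Tex10, Wdr18, Senp3 and Mdn1 genes, whose products act with Nol9, were tested and not listed. Relative to the median of 0.62 of the listed genes outside the interval, Nop58 was at 0.46, Ncl at 0.15, Nop56 at 0.09 and Ddx21 at -0.05.

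The counts of the next lists stand beside the 8.67% of all tested genes listed, and none is read as a result about its list. Among the acyl-CoA thioesterases, 1 of 9 tested was listed, Acot11, at 1572 in +/+ and 747 in Df/+Bl6. Its log2 ratio was -1.07, or -1.69 relative to that median. Among the genes of CaaX processing 1 of 16 was listed, the nuclear lamina gene Lmnb1 (0.97, from 5787 to 11363, or 0.36 relative to that median). The other enzymes of that pathway, Fnta, Fntb, Pggt1b, Rce1 and Zmpste24, were not listed. Of the chaperone and RING genes around Rnf207, 1 of 7 was listed, the cochaperone Dnaja1 (0.61, or -0.01 relative to that median).

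Of 21 CHD and NuRD genes tested, 1 was listed, beside 8.67% of all tested genes. Chd1, a remodeler of active chromatin, was higher in Df/+Bl6 by 0.74 with both alleles summed, 0.85 at the 129S5 allele and 0.78 at the C57BL/6J allele. Relative to the median of the listed genes outside the interval in each table, these values were 0.13, 0.11 and 0.08. In the list of the p19Arf and p53 axis 4 of 12 genes were listed, 3 lower and 1 higher. Of all tested genes 3.54% were listed as lower and 5.13% as higher. The cell cycle inhibitors Cdkn2a (9049 in +/+ and 5583 in Df/+Bl6, log2 ratio -0.70), Cdkn2b (-0.78) and Cdkn1a (-0.67) were lower, and Mdm4, an inhibitor of p53, was higher (1.10). Relative to that median Cdkn2a was at -1.31, Cdkn2b at -1.40, Cdkn1a at -1.29 and Mdm4 at 0.48. That median is of listed genes only and is not the centre of all genes, so the shift enlarges every fall and shrinks every rise. Trp53, Mdm2 and Bax were tested and not listed.

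Markers of other cell types were looked up as well, since several of the 9 genes are best known from neurons or muscle. All 12 fibroblast markers were tested, and Fn1 was listed as lower (-0.69). None of the 10 neuronal, 11 muscle, 7 macrophage, 5 endothelial or 5 epithelial markers tested was listed. Of the 9 markers of Schwann or neural crest cells, all tested, 5 were listed and all 5 were lower in Df/+Bl6. Of all tested genes 3.54% were listed as lower. Summed over these 5 only, the means were 852 in Df/+Bl6 and 2674 in +/+, of which Ngfr alone held 443 and 1334. The markers not listed have no value here, so this sum covers a selected part and is no measure of the cell type. S100b had a log2 ratio of -2.32, Ngfr of -1.59, Foxd3 of -1.54, Sox10 of -1.53 and Erbb3 of -1.09. Their part in the lower means of Gpr153, Plekhg5 and Espn was not tested.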

How the data were processed

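Polyadenylated RNA of 4 Df/+Bl6 and 3 +/+ MEF lines was sequenced as stranded paired-end libraries. The authors aligned the reads with GSNAP, allowing no mismatch, to the C57BL/6J transcriptome (Ensembl release 72, GRCm38) and to a version of it carrying 129S5SvEvBrd variants, with 1 transcript per gene. Genes with fewer than 10 reads on each allele were left out. The deposited signal values are counts that the authors divided by DESeq size factors and averaged per genotype. The deposited tables also hold fold changes and p-values of the authors' own comparison, which were not used beyond the fact that a gene is listed. In all 3 tables the overall mean equals the genotype means weighted by 4 and 3, the numbers of Df/+Bl6 and +/+ lines, which gives the genotype of each mean. A further file holds 9 columns of values without names, 2 more than there are lines. They could not be matched to lines by name and were not used, so the planned limma test between lines, its filter on low values and the omission of single lines were not run. Only its gene identifiers served, as the genes tested.

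Log2 ratios of means were computed without a pseudocount in Python 3.11.15 with numpy 2.4.6 and pandas 2.3.3, and checked on simulated means with known changes. Figures were drawn with matplotlib 3.10.9. Symbols, strands and transcript lengths came from GENCODE (NCBI37), positions and sequences from RefSeq (GRCm38.p6). All 9 genes were described with every value the tables hold, and from each list up to 4 listed genes were named by the size of the ratio. The 5 Schwann markers, the genes named as not listed and those at the ends of a range were named after their values were seen. The 9 genes and the lists were chosen with earlier results of these data known. One marker gene is not reported here.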

Additional observations from a re-analysis of the deposited data

How the results depend on the processing

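The alternatives were a pseudocount of 1 or 10 and centring on the median log2 ratio of the genes listed outside the deletion interval. None of these settings could have changed the direction of a gene of the group. A pseudocount added to both means keeps the larger one larger, and centring subtracts a positive median from ratios already below 0. They show only how far the size of a ratio depends on the processing. With both alleles summed the median log2 ratio of the 6 genes, -1.16, became -1.77 after centring, and with the C57BL/6J allele the median of 4 genes went from -0.86 to -1.57. The 129S5 median of the 5 genes with a ratio, -7.68, became -7.49 with a pseudocount of 1, -5.71 with 10 and -8.42 after centring. A value was taken as moved when it shifted by at least 0.1, since no spread between lines is known. By this measure the pseudocount of 1 moved 5 of 15 single ratios, all of the 129S5 allele. The pseudocount of 10 moved 6, among them the summed ratio of Espn (from -2.53 to -2.33). Centring moved all 15, because listed genes outside the interval are mostly higher in Df/+Bl6 (median 0.62 with both alleles summed), and it brought all 6 summed ratios below -1. The listed genes are a selected set, so this centre is not the centre of all genes. All 12 partner genes listed had a mean of at least 100. No paired analysis was possible because the replicate numbers were given in accession order, which pairs no lines, and no values per line were used. Size factors, depth and the spread between lines were not examined, and members that are not listed have no ratio.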
